A study of Mus musculus with 15 samples.

Results

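Testes that received lentivirus against the M1 muscarinic receptor were compared with testes that received the vector control, MNC, over all genes with a mean of at least 1 FPKM across the 15 libraries of the series. These were 14514 of the 23510 gene IDs in the table. FPKM is the number of sequenced fragments assigned to a gene, scaled by gene length and by the total of the library. The series holds 5 groups of 3 mouse testis libraries, named Con, MNC, M1, M3 and M5, and the M1 and MNC libraries are the ones described here. Per the study's methods, ICR mice, an outbred stock, were injected in the testis at 5 weeks of age with a mixture of lentiviruses that carried shRNA against 3 positions of Chrm1 in the M1 group and a control shRNA, shNC, in the MNC group. The testes were collected 10 days later. Both groups therefore carried lentivirus, and the virus can enter more than one cell type of the testis. The handling of Con is given only as a control. The protocol in the labels mentions sperm where the titles name testis, and genes of Leydig and Sertoli cells such as Insl3 (1062 to 1519 FPKM) and Wt1 (12.8 to 15.7 FPKM) were present in all 6 libraries. No source says whether a library is 1 animal or a pool, so p-values measure only the spread between these libraries.

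Muscarinic receptors are receptors for acetylcholine that couple to G proteins. M1, M3 and M5 couple to Gq, which activates phospholipase C and releases calcium from internal stores, while M2 and M4 couple to Gi, which lowers cyclic AMP. The testis holds germ cells at every step from spermatogonia to elongating spermatids, supported inside the tubules by Sertoli cells and outside them by Leydig cells, which make testosterone, by peritubular myoid cells, by vessels and by resident macrophages. Viral nucleic acid can induce interferon, whose target genes encode antiviral sensors, effectors and transcription factors.

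Chrm1 itself was near the floor of the table in both groups. Chrm1 (chr19:8664005-8683606, here and below in GRCm38.p6, the RefSeq form of the mm10 build that the labels name) was at 0.14, 0.11 and 0.09 FPKM in M1 and at 0.10, 0.11 and 0.11 FPKM in MNC. The values overlapped, and the log2 difference was 0.0084 (exact permutation test, two-sided, p = 0.9, n = 3 and 3). The smallest p that 3 against 3 libraries allow is 0.1. In Con the gene was at 0.15, 0.09 and 0.15 FPKM, so a lower level of the Chrm1 transcript in the libraries labelled M1 was not detectable at this level.

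Of the other receptors of the family, Chrm4 was the one expressed above 1 FPKM. Chrm4 (chr2:91922189-91929835), which encodes the Gi-coupled M4 receptor, was at 3.25, 2.99 and 4.44 FPKM in M1 and at 4.45, 5.01 and 5.10 FPKM in MNC. All M1 values lay below all MNC values, with M1 replicate 3 and MNC replicate 1 next to each other, and the difference was -0.37 on the log2 scale (exact permutation p = 0.1, 0.5 after Benjamini-Hochberg adjustment over the 5 receptors). In Con it was at 2.91, 2.75 and 3.09 FPKM, a range that overlaps that of M1. M3 was at 2.67 to 4.06 FPKM and M5 at 2.05 to 2.29 FPKM, with differences from MNC of -0.37 and -0.87. The lower level of Chrm4 was therefore not particular to M1, and MNC lay above all other groups. Chrm2 was at no more than 0.04 FPKM, Chrm3 at no more than 0.05 FPKM and Chrm5 at no more than 0.43 FPKM in M1 and MNC. The nicotinic receptors are acetylcholine-gated ion channels, and 5 of their 16 subunit genes in the table passed the filter. Chrne, the epsilon subunit, was at 17.41, 16.01 and 17.06 FPKM in M1 and at 20.08, 20.35 and 20.02 FPKM in MNC, a difference of -0.25 ± 0.050 (SE) without overlap and with an adjusted p of 0.819 in limma. The other 4 subunits overlapped between the groups. None of the 5 tested genes of acetylcholine synthesis, transport and breakdown separated the groups, and Chat, the synthesizing enzyme, was at most at 0.03 FPKM.

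The genes that act below Gq, from the G proteins and phospholipases to calcineurin, differed little. Of 31 tested, 14 were higher and 17 lower in M1, with a median log2 difference of -0.011. Without overlap 3 were higher and 1 was lower, which is 12.9% of the list and close to the 12.0% of all genes tested. Dgka, a kinase that removes diacylglycerol, was at 82.4, 80.7 and 75.5 FPKM in M1 and at 66.5, 73.3 and 75.1 FPKM in MNC, which do not overlap. Ppp3r2 and Ppp3cc, the subunits of the calcineurin of germ cells, were also higher in M1 without overlap, by 0.05 and 0.10 on the log2 scale. Plcb1, a phospholipase C, was lower without overlap, with a difference of -0.12.

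Over all genes tested, the M1 and MNC libraries were close. By limma on log2(FPKM + 1) 0 genes had an adjusted p under 0.05, and the lowest adjusted p was 0.140. Leaving out MNC replicate 2 gave 12 called genes, Kpna2, Pga5 and Gm10338 among them, leaving out MNC replicate 1 gave 2, and leaving out any other library gave 0. At an unadjusted p under 0.05 there were 862 genes (5.94%), 363 higher in M1 (2.5%) and 499 lower (3.44%), and 420 without M1 replicate 1. The 3 M1 values did not overlap the 3 MNC values for 1743 genes (12.0%), all above for 731 (5.04%) and all below for 1012 (6.97%). The difference was below 0 for 57.1% of genes and above 0 for 42.8%, the median difference was -0.018 and the quartiles were -0.091 and 0.048. These shares are the background for the gene lists below. The MNC libraries varied more among themselves than the M1 libraries, with a median SD per gene of 0.111 against 0.083 on the log2 scale. MNC replicate 2 correlated across genes at 0.988, 0.982 and 0.991 with the M1 libraries and at 0.976 and 0.984 with MNC replicates 1 and 3, so it lay as near to M1 as to its own group. MNC replicate 1 stood apart from both groups. It correlated at 0.969, 0.974 and 0.966 with the M1 libraries and at 0.976 and 0.974 with MNC replicates 2 and 3.

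**Figure D1:**
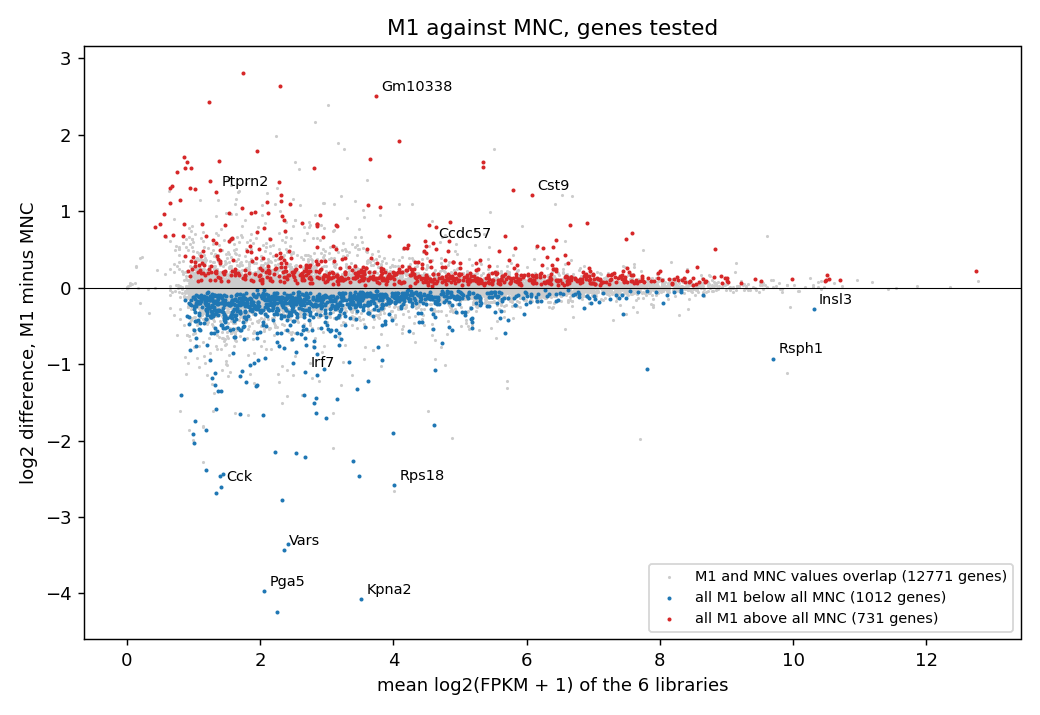
The horizontal axis is the mean log2(FPKM + 1) of the 3 M1 and 3 MNC libraries and the vertical axis the log2 difference, M1 minus MNC, with 1 point per gene tested. Red points are the 731 genes with all M1 values above all MNC values and blue points the 1012 with all M1 values below, and most points sit close to 0 while Kpna2 and Pga5 are among the lowest.

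Differences of at least 1 log2 unit were found for 165 genes, 70 higher and 95 lower in M1. In 115 of them the spread was larger in MNC than in M1, with a median SD of 1.14 in MNC and 0.461 in M1. The MNC library nearest to the M1 mean was replicate 2 for 85 of them (51.5%, against 42.2% over all genes tested). By the ratio of group mean FPKM, 293 genes (2.02%) differed by at least 2-fold, 116 higher (0.799%) and 177 lower (1.22%), and 123 of them did not overlap.

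The largest differences among genes lower in M1 came from genes that were high in some MNC libraries and near the level of Con in M1. Kpna2 (chr11:106988629-106999525), which encodes the nuclear import receptor importin alpha, was at 2.09, 1.49 and 1.83 FPKM in M1 and at 112, 9.39 and 87.5 FPKM in MNC, a difference of -4.07 ± 0.883 (SE). Con was at 1.20, 1.88 and 1.32 FPKM, so M1 was at the level of Con and MNC stood above both, and the MNC libraries spanned more than the gap between MNC replicate 2 and M1. Pga5 (chr19:10668957-10678071), a pepsinogen of the stomach, was at 0.03, 0.07 and 0.07 FPKM in M1 and at 35.5, 5.48 and 18.3 FPKM in MNC. It was at no more than 0.09 FPKM in Con and 0.06 FPKM in M3, and it too was at the level of Con in M1. Cck, the peptide hormone cholecystokinin, was at 0.07, 0 and 0.18 FPKM in M1 and at 0.93, 11.1 and 11.2 FPKM in MNC. Crtam, a surface protein of activated T and NK cells, was at 1.12, 1.3 and 1.26 FPKM in M1 and at 19.9, 3.05 and 10.3 FPKM in MNC, with 1.15, 0.92 and 1.23 FPKM in Con. The M1 values of both genes were within or close to the range of Con.

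Rps18, Pfdn6 and Vars lie on chromosome 17 and were highest in MNC replicate 1. Rps18 (chr17:33951998-33955665), a protein of the small ribosomal subunit, was at 5.98, 6.21 and 4.63 FPKM in M1 and at 155, 34.1 and 10.2 FPKM in MNC. Its neighbour Pfdn6 (chr17:33938909-33940343), a subunit of the chaperone prefoldin, was at 0, 0.40 and 0 FPKM in M1 and at 28.0, 3.33 and 0.86 FPKM in MNC. Vars, the valyl-tRNA synthetase, was at 0.26, 0.45 and 1.08 FPKM in M1 and at 111, 15.2 and 1.62 FPKM in MNC. The order of the MNC libraries was the same for all 3 genes, and here replicate 3 was the one nearest to M1. Hmga1b, a copy of a chromatin protein gene, and Ints13, a subunit of the Integrator complex, were also highest in MNC replicate 1, at 37.2 and 21.2 FPKM, and were at no more than 2.13 and 1.57 FPKM in M1. Rps18 and Hmga1b have close copies elsewhere in the genome, and how reads were split between copies is not stated, so their levels are uncertain.

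Among the genes higher in M1, several were low in MNC and at the level of M1 in Con. Gm10338 (chr14:7581699-7595529) was at 33.5, 28.4 and 30.4 FPKM in M1 and at 1.13, 28.0 and 1.85 FPKM in MNC, a difference of 2.50 ± 0.960 (SE), with 28.9, 29.5 and 25.7 FPKM in Con. MNC replicate 2 was at the level of M1 and the other MNC libraries were low. Gm8279, also on chromosome 14, was at 7.55, 6.14 and 5.03 FPKM in M1 and at 0.28, 4.97 and 0.17 FPKM in MNC, and Gm10375 was at 24.3, 20.7 and 19.8 FPKM in M1 and at 1.54, 14.5 and 7.79 FPKM in MNC. These predicted genes belong to regions with many similar copies, and their levels are uncertain for the same reason.

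Other higher genes have a known role. Cst9 (chr2:148835147-148838737), a cystatin made by Sertoli cells, was at 76.95, 109 and 125 FPKM in M1 and at 72.0, 21.8 and 51.3 FPKM in MNC, a difference of 1.21 ± 0.435 (SE). The lowest M1 library and the highest MNC library were close, and Con, at 23.9, 67.1 and 69.7 FPKM, lay below M1. Arg2, the mitochondrial arginase, was at 5.36, 5.79 and 8.92 FPKM in M1 and at 2.21, 4.35 and 1.02 FPKM in MNC. Ptprn2 (chr12:116485695-117278167), a phosphatase-like protein of secretory vesicles, was at 2.96, 3.92 and 2.06 FPKM in M1 and at 0.46, 0.75 and 0.73 FPKM in MNC, a difference of 1.25 ± 0.186 (SE). M3 was at 2.40, 0.58 and 0.71 FPKM and M5 at 2.62, 2.91 and 1.87 FPKM, so the level of Ptprn2 in M1 was shared by M5 and by 1 M3 library.

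**Figure D2:**
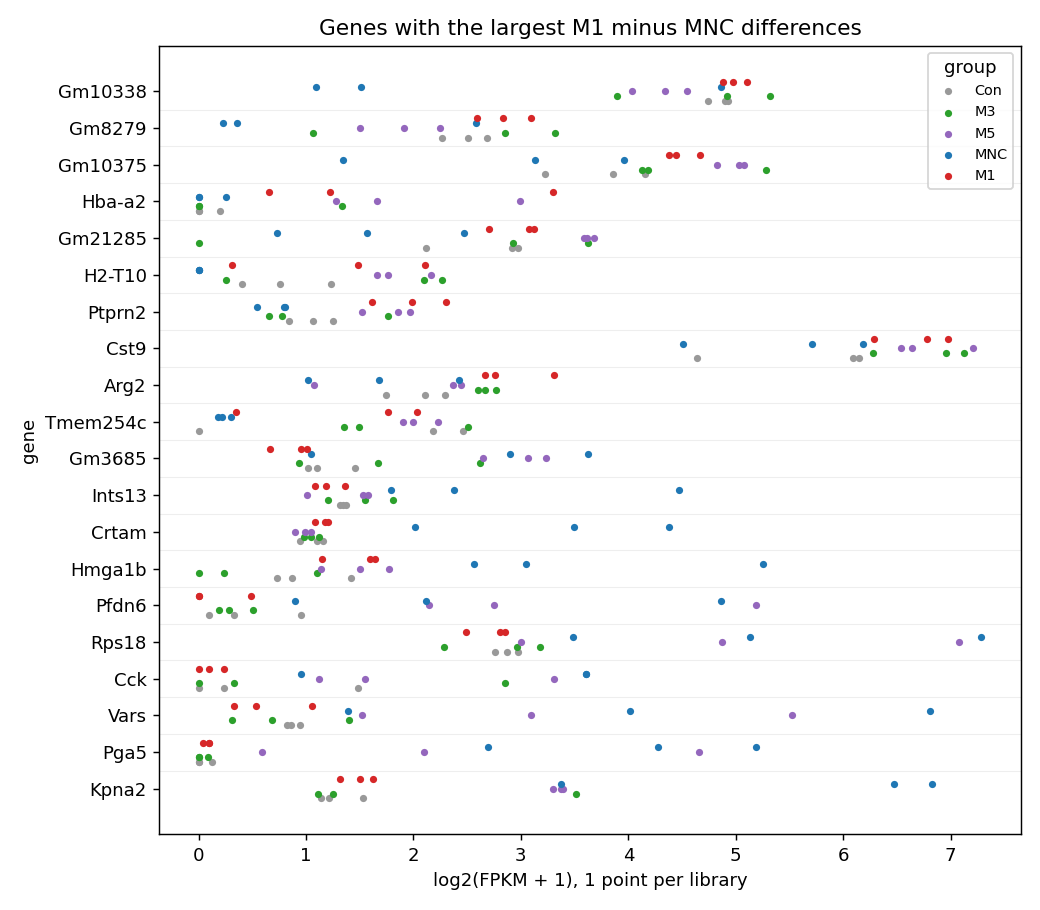
The horizontal axis is log2(FPKM + 1) with 1 point per library, the rows are the 10 genes with the largest difference in each direction among those without overlap at an unadjusted p under 0.05, and colours are the 5 groups. The M1 points lie close to Con for Kpna2, Crtam and Gm10338, while the MNC points are spread, with 1.13, 28.0 and 1.85 FPKM for Gm10338.

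Most of the genes with the lowest p had differences under 1 log2 unit, Pga5 and Ptprn2 apart. Ccdc57 (chr11:120826529-120932926), a protein of centrioles and microtubules, was at 29.5, 27.0 and 29.6 FPKM in M1 and at 19.1, 18.8 and 18.6 FPKM in MNC, a difference of 0.58 ± 0.053 (SE, limma adjusted p = 0.191). M3 was at 33.1, 34.8 and 29.2 FPKM and M5 at 26.8, 19.9 and 21.4 FPKM, so all 9 libraries of the knockdown groups lay above all 3 of MNC, and Con was at 15.2, 12.0 and 18.3 FPKM. Grin3b, an NMDA receptor subunit, was at 4.48, 3.95 and 4.55 FPKM in M1 and at 6.79, 6.70 and 6.76 FPKM in MNC. Con, at 4.84, 4.45 and 4.81 FPKM, was close to M1. Alas1, the first enzyme of haem synthesis, was at 28.2, 29.8 and 29.2 FPKM in M1 and at 38.4, 46.2 and 43.0 FPKM in MNC. Rfx8, a member of the RFX transcription factor family, was at 34.7, 34.3 and 35.8 FPKM in M1 and at 26.3, 29.6 and 27.4 FPKM in MNC. Cebpa, a transcription factor, was at 1.65, 1.78 and 1.70 FPKM in M1 and at 2.49, 2.77 and 2.54 FPKM in MNC. None of these 4 passed the adjustment, with adjusted p of 0.625 for Grin3b, 0.728 for Alas1 and 0.819 for Rfx8 and Cebpa in limma. Zfp618 and Fbxo6 were lower, with differences of -0.59 and -0.84, and Gm15128 was higher, with one of 0.61, each without overlap. Of the IDs without a name, BGI_novel_G001974 had the lowest p of all genes tested, at 1.83, 1.31 and 1.46 FPKM in M1 and 0, 0.02 and 0 FPKM in MNC, a difference of 1.33 (limma adjusted p = 0.140).

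Most interferon-stimulated genes were at a lower level in M1 than in MNC. Of 51 in the table, 39 were tested and 36 of them were lower in M1, with a median difference of -0.38 beside -0.018 over all genes tested. The lower level was not particular to M1. The median relative to MNC was -0.27 in M3, -0.92 in Con and 0.18 in M5. Between M1 and M3 the median difference of the list was -0.0049. In 11 of the 39 (28.2%) all M1 values lay below all MNC values, beside 6.97% of all genes, and in none did they lie above. At an unadjusted p under 0.05 there were 10, all lower (3.44% of all genes), and none passed the adjustment. Among the 12 members below the filter, 9 were lower without overlap, beside 6.0% of the 7816 genes below the filter that were above 0 in M1 or MNC. A gene at 0 in libraries of both groups cannot separate them, so this share is not matched to the level of the 12.

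Among the transcription factors of the response, Irf7 (chr7:141263183-141266499), which drives interferon production, was at 3.57, 4.94 and 2.05 FPKM in M1 and at 12.1, 8.28 and 5.87 FPKM in MNC, a difference of -1.11 ± 0.316 (SE). Con was at 1.67, 1.36 and 1.39 FPKM, so M1 lay between Con and MNC without overlap with either. Stat2 (chr10:128270498-128292853), which carries the interferon signal to the nucleus, was at 3.58, 3.18 and 2.11 FPKM in M1 and at 7.06, 5.17 and 5.19 FPKM in MNC, a difference of -0.79 ± 0.180 (SE). Of the effectors and sensors, Ifit3 (chr19:34583119-34588982), which binds to the machinery of viral RNA recognition, was at 2.66, 1.73 and 0.91 FPKM in M1 and at 6.28, 4.43 and 2.79 FPKM in MNC, a difference of -0.99 ± 0.315 (SE). Ddx58, the RNA sensor RIG-I, was at 1.62, 1.69 and 1.48 FPKM in M1 and at 2.67, 2.29 and 2.30 FPKM in MNC. Con was at 1.63, 1.71 and 1.58 FPKM, so M1 was at the level of Con for Ddx58. Oasl2, Lgals3bp, Ifi27, Ifi27l2a and Slfn5 were also lower without overlap, with log2 differences of -0.66, -0.77, -0.45, -0.97 and -0.45. The interferon-inducible GTPases that the list holds overlapped between the groups, with Gbp2 at 6.68, 4.46 and 1.94 FPKM in M1 and at 4.33, 3.09 and 5.93 FPKM in MNC, and Igtp at 4.70, 3.91 and 1.99 FPKM and at 4.75, 2.86 and 3.58 FPKM. Outside the list, the GTPases Gbp5 and Gbp10, named after their values had been seen, were lower without overlap, with differences of -0.20 and -0.43. Other GTPases outside the list are not reported here, so these 2 say nothing about the family.

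The difference depended on single libraries. The median of the list, relative to the MNC mean, was -0.22, -0.11 and -0.76 in the M1 libraries, 0.30, -0.09 and -0.21 in the MNC libraries and between -0.93 and -0.85 in Con. M1 replicate 3 was the lowest and MNC replicate 1 the highest, and MNC replicate 3 lay at about the level of M1 replicate 1. Without M1 replicate 3 the median difference was -0.14 and 28 of 39 genes were lower, and without MNC replicate 1 it was -0.21 with 33 lower. The count lower without overlap was 11 in each case (28.2%), beside 11.6% and 11.3% of all genes with 2 libraries in the smaller group, and without M1 replicate 3 there were 2 genes higher without overlap. These counts with 1 library left out, and the count of members below the filter, were added after the data had been seen.

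Genes of immune cells also varied between single libraries. The 28 tested genes of macrophages and other leukocytes had a median of -0.12, and their library medians were -0.10, 0.28 and -0.59 in M1 and 0.50, -0.26 and -0.23 in MNC. Of the 28 genes, 18 were lower, none was lower without overlap and 2 were higher without overlap (7.14%, beside 5.04% of all genes). Their summed level was 487 to 693 FPKM in M1 and 526 to 668 FPKM in MNC. Ptprc, the common leukocyte antigen, was at 2.25, 5.06 and 1.20 FPKM in M1 and at 4.06, 1.96 and 1.70 FPKM in MNC. M1 replicate 2 and MNC replicate 1 were the high libraries. The part of leukocyte content in the interferon difference was not tested, and in bulk tissue fewer cells of a type cannot be told apart from less RNA per cell. The 6 tested genes of class II antigen presentation had a median of -0.47 with none without overlap, and H2-Aa was at 19.5, 24.3 and 13.1 FPKM in M1 and at 64.2, 26.6 and 13.7 FPKM in MNC. The 17 of class I had a median of -0.15, with 1 gene without overlap in each direction (11.8%, beside 12.0% of all genes). H2-T22, a non-classical class I gene, was at 3.21, 2.23 and 4.37 FPKM in M1 and at 16.9, 9.15 and 8.16 FPKM in MNC, while H2-T10 was at 1.80, 3.31 and 0.24 FPKM in M1 and at 0 in all MNC libraries. These genes are near-identical, and their sum was 5.01, 5.54 and 4.61 FPKM in M1 and 16.9, 9.15 and 8.16 FPKM in MNC. Fcgr3, an antibody receptor of macrophages, went the other way, with 34.4, 22.4 and 23.1 FPKM in M1 and 16.6, 19.8 and 16.7 FPKM in MNC. The 12 complement genes (median -0.040), the 8 of acute phase and injury (-0.091) and the 17 chemokines (-0.14) separated the groups in 0, 0 and 3 genes. The 3 chemokines were all lower (17.6%, beside 6.97% of all genes). Pf4, a platelet chemokine, was one of the 3, with a difference of -0.52.

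**Figure D3:**
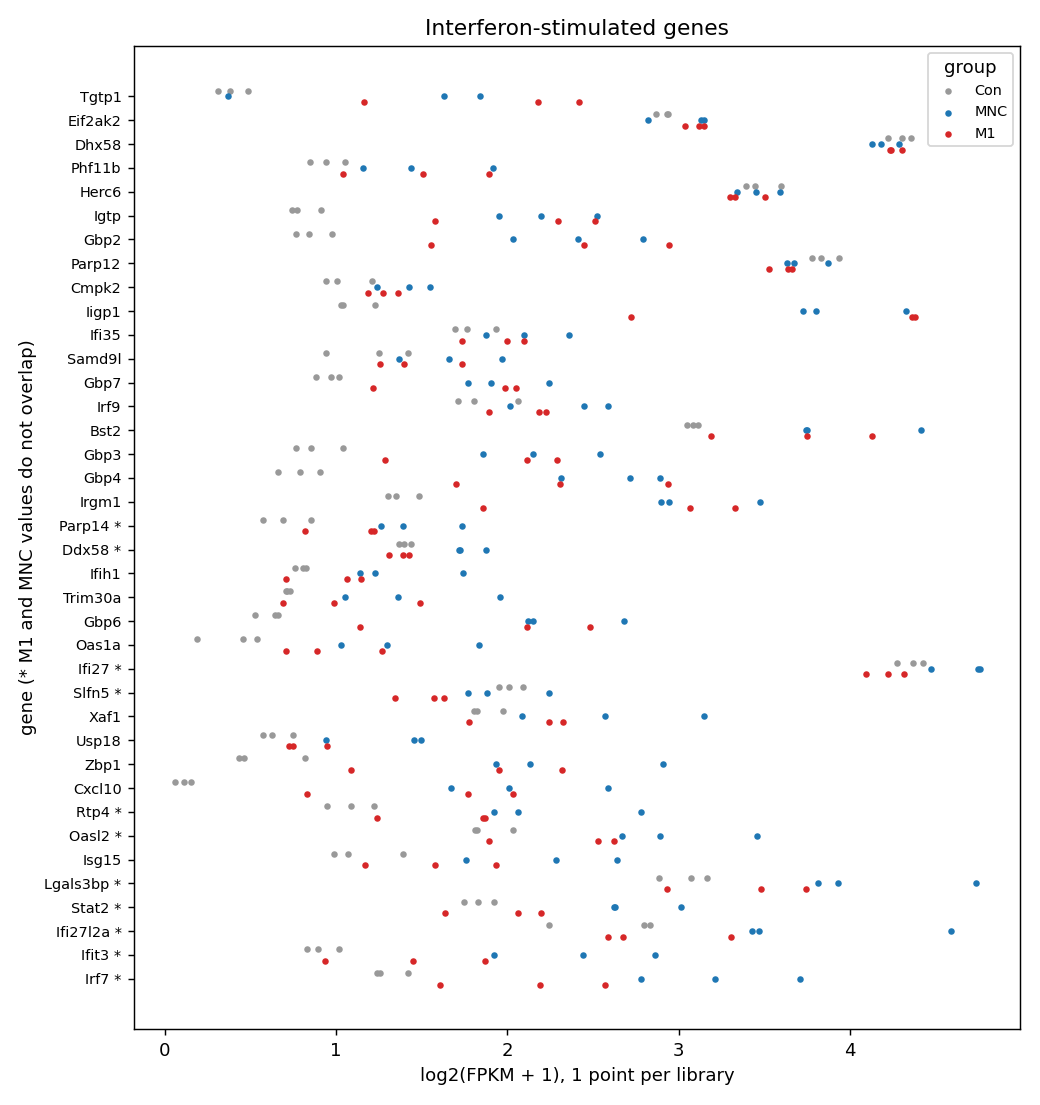
The horizontal axis is log2(FPKM + 1) with 1 point per library for Con, MNC and M1, and the rows are 38 of the 39 interferon-stimulated genes tested, ordered by the M1 minus MNC difference. An asterisk marks the 11 genes in which all M1 values lay below all MNC values, and Con is the lowest group for most rows, as for Irf7 at 1.36 to 1.67 FPKM.

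The promoters of the interferon list were searched on both strands for a pair of GAAA separated by any 2 bases, the core of the element bound by the interferon factor ISGF3 and by IRF proteins. The window ran from 250 bases before to 50 bases after each transcription start that the RefSeq table lists for a gene in GRCm38.p6, which can lie inside the outer bounds of the gene, as it does for Ifit3. Of 28 tested interferon genes with a promoter in the table, 18 (64.3%) held the motif, beside 380 of 10940 (3.47%) of all tested genes with one. A gene with several listed starts was counted if any window held the motif, and among genes with 1 listed start the shares were 16 of 25 (64.0%) and 267 of 8774 (3.04%). Of the 11 interferon genes that were lower without overlap, 7 had a promoter in the table and 4 of these held the motif. The promoters of Ifit3, Stat2 and Slfn5 are printed because these genes were lower in M1 without overlap and hold a match before the listed start, which is in capitals and reads as a pair of TTTC where it lies on the other strand. A match is a description of the letters and not a measured binding site.
Ifit3, chr19:34583279-34583578, plus strand: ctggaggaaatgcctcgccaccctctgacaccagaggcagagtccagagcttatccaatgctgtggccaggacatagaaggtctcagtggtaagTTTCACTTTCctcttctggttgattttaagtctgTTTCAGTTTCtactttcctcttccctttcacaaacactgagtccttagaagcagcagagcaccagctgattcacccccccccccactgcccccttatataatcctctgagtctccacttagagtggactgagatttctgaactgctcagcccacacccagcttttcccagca
Stat2, chr10:128270248-128270547, plus strand: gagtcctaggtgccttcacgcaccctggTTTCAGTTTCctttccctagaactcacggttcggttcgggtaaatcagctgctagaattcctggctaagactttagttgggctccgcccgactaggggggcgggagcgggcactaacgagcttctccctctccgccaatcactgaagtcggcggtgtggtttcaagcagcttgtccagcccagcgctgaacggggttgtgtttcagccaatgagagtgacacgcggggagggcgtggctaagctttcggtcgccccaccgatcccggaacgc
Slfn5, chr11:82951852-82952151, plus strand: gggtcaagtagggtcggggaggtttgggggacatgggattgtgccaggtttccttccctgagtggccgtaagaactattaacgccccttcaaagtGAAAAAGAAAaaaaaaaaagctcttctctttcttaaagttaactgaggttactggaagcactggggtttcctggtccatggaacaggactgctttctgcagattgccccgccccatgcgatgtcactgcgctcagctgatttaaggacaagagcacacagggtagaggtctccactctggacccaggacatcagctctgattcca

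Ifit3 held 2 matches, the first at -156 from the listed start, and Stat2 and Slfn5 held 1 each, at -222 and -155. Ddx58 held 1 match, 2 bases after its listed start. Irf7, Lgals3bp and Oasl2, which were also lower without overlap, held no match in this window.

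Leydig cell genes leaned lower in M1. Of 21 tested, 19 were lower, with a median of -0.23. In 5 of them, all lower, the unadjusted p was under 0.05, beside 3.44% of all genes. Lhcgr (chr17:88716384-88792059), the receptor through which luteinizing hormone drives testosterone synthesis, was at 3.71, 4.06 and 3.54 FPKM in M1 and at 9.13, 6.14 and 4.15 FPKM in MNC. The groups were separated by a narrow gap, and Con was higher than M1, at 11.4, 12.4 and 8.85 FPKM. Insl3 (chr8:71689252-71690577), a hormone of Leydig cells, was at 1062, 1163 and 1219 FPKM in M1 and at 1519, 1470 and 1224 FPKM in MNC, a difference of -0.29 ± 0.095 (SE). Por, the electron donor of steroid-making cytochromes, was at 7.06, 7.05 and 6.54 FPKM in M1 and at 9.98, 8.32 and 7.67 FPKM in MNC. These 3 genes (14.3% of the list) were lower without overlap, beside 6.97% of all genes lower and 12.0% in either direction. Star, which moves cholesterol into mitochondria, overlapped, at 17.8, 26.5 and 13.2 FPKM in M1 and 23.9, 33.0 and 35.1 FPKM in MNC, as did Hsd3b6. Cyp11a1, which makes the first steroid, was at 74.0, 136 and 81.5 FPKM in M1 and 146, 116 and 79.7 FPKM in MNC. Without MNC replicate 1 the median of the list was -0.061. Genes of matrix and fibroblasts had a median of -0.22 with 17 of 19 lower and none without overlap, and their library medians were -0.27, -0.10 and -0.15 in M1 and 0.34, -0.0027 and -0.27 in MNC. Without MNC replicate 1 the matrix median was -0.034. The 20 genes of cholesterol synthesis had a median of -0.061, with 1 gene without overlap (5.0%, beside 12.0% of all genes).

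**Figure D4:**
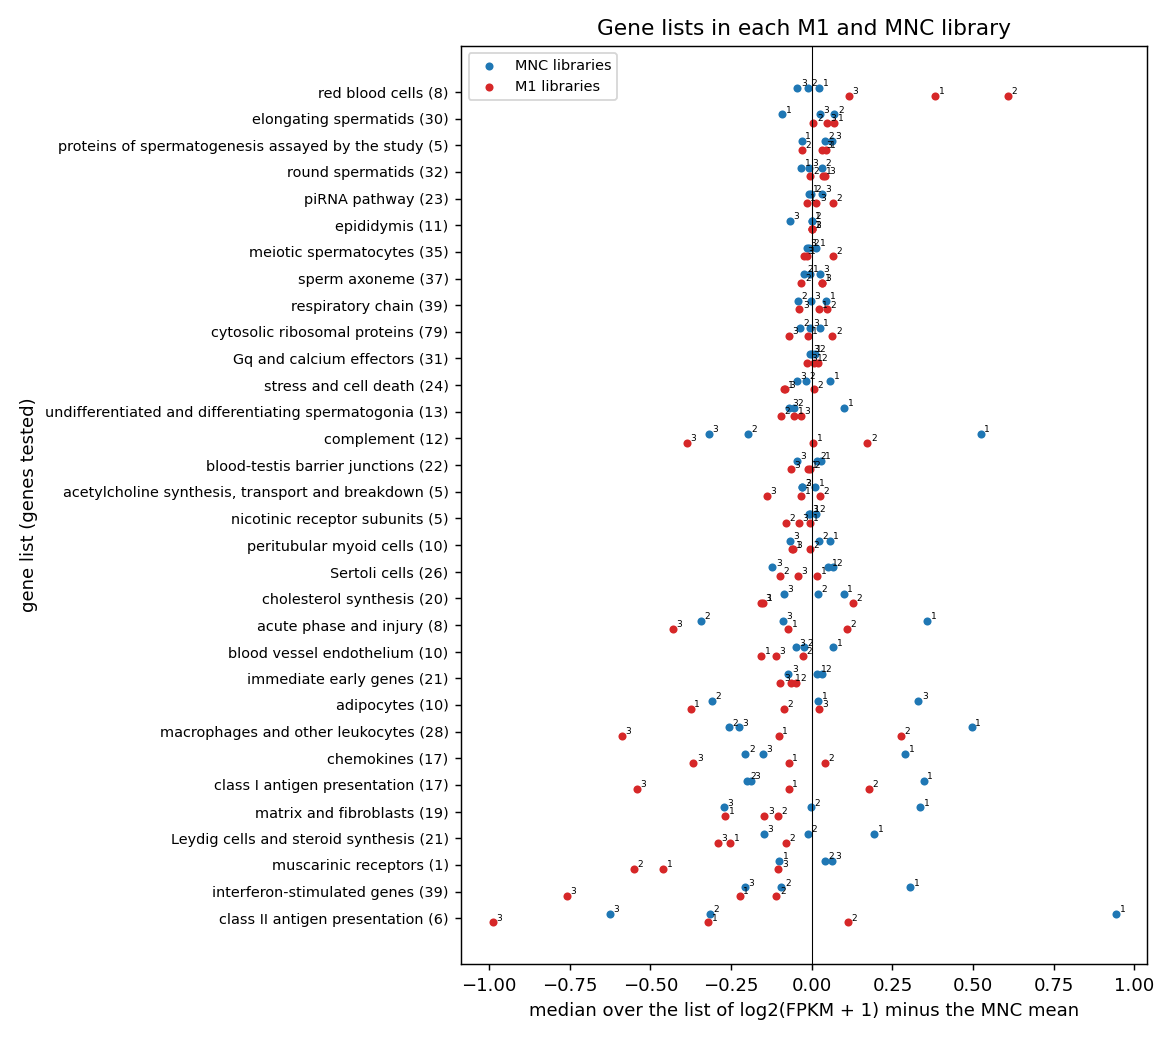
Each row is a gene list with the number of its genes tested, and each point is 1 M1 (red) or MNC (blue) library, labelled by replicate, at the median over the list of log2(FPKM + 1) minus the MNC mean. MNC replicate 1 and M1 replicate 3 lie far apart in the interferon row (0.30 and -0.76), and the germ cell rows lie close to 0 in all 6 libraries.

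The lists of Sertoli cells, barrier junctions and peritubular myoid cells had medians within 0.06 log2 units of MNC. The 26 Sertoli genes had a median of -0.055, with 1 higher and 3 lower without overlap (15.4%, beside 12.0% of all genes). Sox9, the transcription factor of Sertoli cells, was at 3.94, 3.34 and 3.71 FPKM in M1 and at 4.32, 4.18 and 4.79 FPKM in MNC, and the others that did not overlap were Shbg, Fshr and, higher, Cst9. Wt1, another Sertoli factor, was at 15.03, 13.6 and 14.99 FPKM in M1 and at 13.6, 15.7 and 12.8 FPKM in MNC. The 22 genes of the junctions of the blood-testis barrier had a median of -0.043, with 1 higher and 2 lower without overlap (13.6%). The 10 genes of peritubular myoid cells had a median of -0.048, with 1 higher and 3 lower without overlap (40.0%, beside 12.0% of all genes), and the largest of these differences was -0.21 for Tpm2, a tropomyosin.

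Germ cell genes lay within 0.04 log2 units of MNC by their medians. The 13 genes of spermatogonia had a median of -0.037, with 11 lower and 1 lower without overlap (7.69%, beside 6.97% of all genes). The 1 gene was Sohlh1, a transcription factor of differentiating spermatogonia, at 3.23, 2.31 and 2.72 FPKM in M1 and 3.37, 3.51 and 4.50 FPKM in MNC. The 35 genes of meiotic spermatocytes had a median of 0.0052 with 3 higher and 2 lower without overlap (14.3%, beside 12.0% of all genes). Rec8, a cohesin of meiosis, was at 33.5, 34.8 and 33.4 FPKM in M1 and at 30.6, 32.1 and 29.4 FPKM in MNC. The 32 genes of round spermatids had a median of 0.017 and the 30 of elongating spermatids one of 0.030. Without overlap 4 and 3 were higher and none was lower. These are 12.5% and 10% of the lists, beside 5.04% of all genes higher, 6.97% lower and 12.0% in either direction. Prm2, a protamine that packs sperm DNA, was at 7621, 7477 and 7213 FPKM in M1 and at 5486, 6948 and 6811 FPKM in MNC, a difference of 0.22 ± 0.095 (SE). Con was far lower, at 3060, 1915 and 4656 FPKM, and MNC replicate 1 was the low library of its group. Akap4, a scaffold of the sperm tail, was at 698, 714 and 737 FPKM in M1 and at 603, 694 and 687 FPKM in MNC. The 37 axoneme genes had a median of 0.0027, and Rsph1, a radial spoke protein, was at 614, 589 and 606 FPKM in M1 and at 1711, 705 and 1260 FPKM in MNC, with 700, 709 and 735 FPKM in Con. The M1 libraries of Rsph1 lay closer to Con than MNC replicates 1 and 3 did. The 23 piRNA genes had a median of 0.016, and Ddx4, the germ cell helicase, was at 203, 205 and 203 FPKM in M1 and at 195, 191 and 190 FPKM in MNC.

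The study assayed TP1, PGK2, CREM, phosphorylated FSCN1 and SOX9 as proteins in testes with the M5 knockdown. Of their transcripts in M1 and MNC, Pgk2, the glycolytic kinase of meiotic and later germ cells, was at 561, 531 and 516 FPKM in M1 and at 482, 507 and 489 FPKM in MNC, a difference of 0.12 ± 0.044 (SE). Tnp1, a transition protein, overlapped, at 3869, 3594 and 3759 FPKM in M1 and 3256, 3795 and 4014 FPKM in MNC. Crem was higher without overlap, by 0.06, and Fscn1 overlapped, with a difference of -0.08.

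The 79 cytosolic ribosomal proteins had a median of -0.0049 with 11.4% without overlap, the 39 respiratory chain genes one of -0.00013 with 10.3%, and the 24 genes of stress and cell death one of -0.037 with 8.33%. In the last list Cdkn1a, which stops the cell cycle, was at 2.10, 2.75 and 1.52 FPKM in M1 and at 4.67, 2.96 and 4.14 FPKM in MNC, and Gadd45a, another gene induced by DNA damage, was lower without overlap, with a difference of -0.22. The 21 immediate early genes had a median of -0.095 and the 10 endothelial genes one of -0.094. In each list 2 genes were lower without overlap, which is 9.52% and 20% of them, beside 6.97% of all genes. All 8 genes of red blood cells were higher in M1, with a median of 0.26 and 2 of the 8 without overlap, beside 5.04% of all genes, and Hba-a1, an alpha globin, was at 18.1, 32.7 and 16.8 FPKM in M1 and at 14.9, 13.8 and 14.5 FPKM in MNC. Con, at 43.1, 26.6 and 60.0 FPKM, lay above MNC and overlapped M1. The 10 adipocyte genes had a median of -0.10 and the 11 epididymal genes one of 0.013, with none without overlap.

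M1 was also compared directly with the other knockdown groups, which leaves out the shared control. Against M3 no gene was called by limma, and 672 genes (4.63%) were at an unadjusted p under 0.05. Cd5l, a secreted protein of macrophages, had the lowest p, at 2.55, 4.16 and 4.22 FPKM in M1 and at 0.12, 0.06 and 0.20 FPKM in M3 (difference 2.02, limma adjusted p = 0.0801). Eif3j1, a translation initiation factor subunit, was at 9.18, 9.69 and 8.35 FPKM in M1 and at 16.7, 18.3 and 17.9 FPKM in M3 (difference -0.89, limma adjusted p = 0.0801). MNC was at 15.8, 9.41 and 16.1 FPKM for this gene, so MNC replicate 2 was again the library at the level of M1.

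Against M5, 980 genes (6.75%) were called by limma, 511 higher (3.52%) and 469 lower (3.23%) in M1, while 25.4% had an unadjusted p under 0.05 and 33.7% did not overlap. H2ac23, a histone H2A gene, was at 0 in all M1, MNC and Con libraries and at 20.8, 22.6 and 28.7 FPKM in M5, and also at 19.1 FPKM in M3 replicate 3. Tmem89, a testis membrane protein, was at 34.5, 26.4 and 47.5 FPKM in M1 and at 0 in all M5 libraries and in M3 replicate 3. M3 replicate 3 therefore went with M5 in both genes. Over the 980 genes, M3 replicate 3 lay nearer to the M5 mean than to the M1 mean in 83.5%, against 7.35% and 6.53% for M3 replicates 1 and 2. The 980 were chosen by their M1 and M5 values, and over all genes tested these shares were 53%, 26.8% and 28.7%. M3 replicate 3 correlated at 0.980 and 0.984 with M5 replicates 1 and 2, at 0.970 with M5 replicate 3, and at 0.977 and 0.979 with M3 replicates 1 and 2. The group label and whatever M3 replicate 3 shares with M5 cannot be told apart in the M1 and M5 comparison. By list, 9 of the 30 elongating spermatid genes and 6 of the 32 round spermatid genes were higher in M1 than in M5, with 0 and 2 lower, and 19 of the 79 ribosomal proteins were lower and 0 higher. Rps13, one of the latter, was at 19.2, 23.04 and 20.9 FPKM in M1, at 103, 99.1 and 87.1 FPKM in M5 and at 81.8 FPKM in M3 replicate 3. Of the interferon genes 2 were lower in M1 than in M5 and of the Leydig genes none was called. The count of 980 moved with every library left out, to 56, 208 and 85 without M1 replicate 1, 2 and 3 and to 256, 135 and 1690 without M5 replicate 1, 2 and 3.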

How the data were processed

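The authors deposited 1 table of FPKM per gene and library to 2 decimals, from poly(A) RNA sequenced on an Illumina HiSeq instrument and mapped with SOAPaligner. The methods call these values RPKM, and the annotation is not given in the sources used here. Read counts were not used here, so absolute depth is unknown. Low values gave a relative depth of 0.943 to 1.033 per library, from steps found in 81 of 377 low genes, and summed FPKM was 470243 to 513817. Groups were read from the titles, since a label of M5 replicate 2 points to the column of M5 replicate 1.

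Of 23510 IDs, 21143 (89.9%) matched RefSeq genes of GRCm38.p6. The study's test needs counts, so limma 3.58.1 (trend, two-sided) in R 4.3.3 was fitted on log2(FPKM + 1) to the 2 groups compared, for the 14514 genes with a mean FPKM of at least 1, with Benjamini-Hochberg adjustment over them and calls under 0.05. Differences on this scale understate those of low genes. The values of 1 member of the interferon list are not reported here. The fits were tested on simulated data. Named were list members, the 10 genes with the lowest p, the 10 largest differences in each direction without overlap at an unadjusted p under 0.05, the 5 lowest p against M3 and M5, and at most 2 unnamed IDs in each direction. Gbp5 and Gbp10 were named outside this rule. The lists, which got no test, and the part of the series described were chosen with earlier results of these data known. Other alternatives were a pseudocount of 0.1, filters of 0.1, 5 and none, centring, quantile normalization, no trend, 1 fit of all 5 groups, a block for the replicate number, Con as control, a 2-fold ratio and leaving out each library. Python 3.11.15, pandas 2.3.3, numpy 2.4.6, scipy 1.17.1 and matplotlib 3.10.9 were used.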

Additional observations from a re-analysis of the deposited data

Results flagged for a closer look

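Between M1 and M5 980 genes were called by limma, a direct test of the difference between these groups. Of the 10 genes with the largest M1 minus MNC difference in each direction, 5 also differed between M1 and M5 in that test. Of all genes, 6.75% were called in it. These genes were chosen by their M1 and MNC values. The same 3 M1 libraries enter both comparisons, so the calls are no separate support for the M1 minus MNC differences. Gm10338 was higher in M1 than in M5 by 0.68 on the log2 scale. Gm10375 (-0.48), Gm21285 (-0.66), Kpna2 (-1.87) and Gm3685 (-2.11) were lower in M1 than in M5. For Kpna2 the M5 libraries were at 9.35, 8.82 and 9.49 FPKM and M3 replicate 3 was at 10.4 FPKM, beside 1.16 and 1.38 FPKM in the other M3 libraries.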

How the results depend on the processing

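Between M1 and MNC, 0 genes were called with filter 5, centring, quantile normalization, no trend and all 5 groups in one fit, 2 with a pseudocount of 0.1, and 3 with a filter of 0.1 and with no filter. The 2 were unnamed IDs, and 2 of the 3 were unnamed, the other being Ctrc, a digestive protease. Leaving out 1 library gave 0 to 12 calls. The count at an unadjusted p under 0.05 was 544 with filter 5 and 420 to 1183 with 1 library left out. With Con in place of MNC 4969 genes were called, 1494 of them higher in M1, and 7064 had an unadjusted p under 0.05, and the 2-fold ratio without a test named 293. Between M1 and M3 there was 1 call after centring and 0 to 5 with 1 library left out. Between M1 and M5 there were 252 calls after centring, of which 58.3% were higher in M1 against 52.1%, 384 without trend, 1183 after quantile normalization with 61.2% higher, and 56 to 1690 with 1 library left out. The causes were not tested.

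No pairing by replicate number was seen. Same-numbered M1 and MNC libraries deviated from their group means with correlations of -0.077, -0.399 and 0.0065, and other-numbered ones with -0.293 to 0.362. Deviations within a group cancel, so these correlations depend on each other and cannot show that no pairing exists. With the replicate number as a block 0 genes were called between M1 and MNC (623 at an unadjusted p under 0.05), 0 between M1 and M3, and 39 between M1 and M5.

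The Chrm1 difference was -0.021 with Con in place of MNC and ranged from -0.0088 to 0.024 with 1 library left out. Of 1092 alternative differences of 75 named genes, 3 changed sign: the Prm1 difference was -0.070 after quantile normalization and ranged from -0.056 to 0.17 with 1 library left out, and the Wt1 difference ranged from -0.011 to 0.13. Of 320 alternative list medians, 24 moved by more than the spread between libraries. FPKM without counts gives no interval from depth, and 3 libraries per group limit the precision of each value.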
